A study of Homo sapiens with 6 samples.

Results

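The genes described are 60 splicing factor and hnRNP genes of MIA PaCa-2 cells, a human cell line established from a pancreatic carcinoma. They were chosen from a deposited table of 18268 rows by their names (symbols starting with SRSF and a digit, SF3A or SF3B, SNRP, HNRNP, PRPF or U2AF, with 1 symbol left out) and by reaching 1 FPKM in 3 or more of the 6 libraries. FPKM counts sequenced fragments scaled to transcript length and library size, so it may be compared between genes as well as between libraries. Of 70 rows whose names matched, 3 joined the symbols of neighbouring genes, 6 lay below the level and 1 is not analysed here. The 60 genes fell into 17 HNRNP, 11 SRSF, 11 PRPF, 9 SF3A and SF3B, 9 SNRP and 3 U2AF genes. The values just inside and outside the level, taken as the third highest of the 6 libraries, were 3.50 FPKM for U2AF1L5 and 3.95 FPKM for PRPF38B inside, and 0.67 FPKM for PRPF40B and 0.06 FPKM for SRSF12 outside. The other 4 rows outside, HNRNPCL1 to HNRNPCL4, were listed at 0 in every library.

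Both groups were MIA PaCa-2 cells grown in DMEM with fetal bovine and horse serum. The first group of 3 libraries is labelled as LINC00901 KO, a knockout of a long non-coding RNA gene, and the second group of 3 as vector control, with LCV2 in its titles. Whether the libraries of a group are from separate cultures or from 1 clone is not in the labels, so the tests measure the spread between these libraries, which may be technical. Of the table's rows, 0 named LINC00901, so the knockout itself was not analysed here and all directions rest on the labels.

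Introns are removed from pre-mRNA by the spliceosome, which is built anew on each intron from small nuclear ribonucleoproteins (snRNPs). The U1 snRNP recognises the start of the intron, U2AF binds the polypyrimidine tract and the AG at its end, and the U2 snRNP with its SF3A and SF3B proteins binds the branch point. The U4/U6.U5 tri-snRNP then joins, and PRPF proteins take part in its activation. SR proteins (SRSF) bind exons and mostly promote their inclusion, while hnRNP proteins coat pre-mRNA and often oppose it. SF3B1, SRSF2 and U2AF1 are recurrently mutated in human cancers, and SF3B1 also in pancreatic adenocarcinoma. The values here are RNA levels, and splicing itself was not measured.

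Some members have near-identical copies, which limits what their single values mean. HNRNPA1 (chr12:54280193-54287088, plus strand, in GENCODE 29 on GRCh38) has the copies HNRNPA1L2 (chr13:52642425-52643796, plus strand) and HNRNPA1P48 (chr16:51553436-51647132, plus strand) among the 60 genes. Over the coding sequence, 945 of 960 bases of HNRNPA1L2 and 819 of 825 bases of HNRNPA1P48 were identical to HNRNPA1 in a global alignment. Of the 911 stretches of 50 bases in the HNRNPA1 coding sequence, 393 also occurred in HNRNPA1L2 and 538 in HNRNPA1P48. A single transcript was compared per gene, the longest or the nearest in coding length to that of its copy. For U2AF1L5 a transcript identical to that of U2AF1 was preferred at equal length. In these transcripts U2AF1 (chr21:43092956-43107587, minus strand) and U2AF1L5 (chr21:6484623-6499261, minus strand) had the same coding sequence over all 720 bases. The first 60 of these are shown as an example of a stretch that both genes share, and their untranslated regions were not compared. The submitters' processing notes name hg19, whereas the positions given here are those of GRCh38. Whether the annotation behind the table treats this pair as GENCODE 29 does is not given in the sources used here.
U2AF1 and U2AF1L5: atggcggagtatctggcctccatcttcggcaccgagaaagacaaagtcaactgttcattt
How reads shared by such copies were assigned is not given in the sources used here, so the single values of these 5 genes are uncertain. They are also given as sums.

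No splicing factor or hnRNP gene passed the test between the groups. With limma on log2(FPKM + 1) and Benjamini-Hochberg adjustment over all 9624 tested genes, 0 of the 60 genes were called higher and 0 lower at an adjusted p below 0.05. Over all tested genes 1.35% were called, 0.509% higher and 0.842% lower in KO (49 and 81 genes, and 31 and 99 after quantile normalization). At an unadjusted limma p below 0.05 there were 5 of the 60 genes, 2 higher and 3 lower, against 17.5% of all tested genes. The log2 fold changes of the 60 genes, KO minus vector control, ran from -0.82 (PRPF39) to 0.59 (SRSF11) with a median of -0.04, which was -0.14 after median scaling and 0.02 after quantile normalization. The median over all tested genes was 0.08. Of the 60 genes, 24 lay above 0 and 36 below, while of all tested genes 5703 lay above 0 and 3921 below. In these bulk samples a change in the share of cells and a change in RNA per cell cannot be told apart.

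The precision differed between genes. The 95% confidence interval of the log2 fold change, not adjusted for the number of genes, had a median half-width of 0.48 over the 60 genes and 0.47 over all tested genes. For 48 of the 60 genes it lay wholly within 1 log2 unit of 0. For 14 it lay within 0.5 of 0, among them SRSF4, SRSF5 and SF3A2. For 12 it reached beyond 1, the widest being SRSF8 (-1.09 to 1.49) and SF3B4 (-0.96 to 1.27).

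In 6 of the 60 genes, or 10.0%, the values of KO and vector control did not overlap. Over all tested genes this was so for 23.8%, with 15.4% higher and 8.35% lower in KO. Of the 6 genes, SRSF10 and PRPF38B were higher in KO, and PRPF39, HNRNPC, SF3B1 and HNRNPDL lower. After median scaling of the libraries the count was 12, 2 higher and 10 lower, against 23.7% of all tested genes. After quantile normalization it was 9, 6 higher and 3 lower, against 21.9%.

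**Figure D1:**
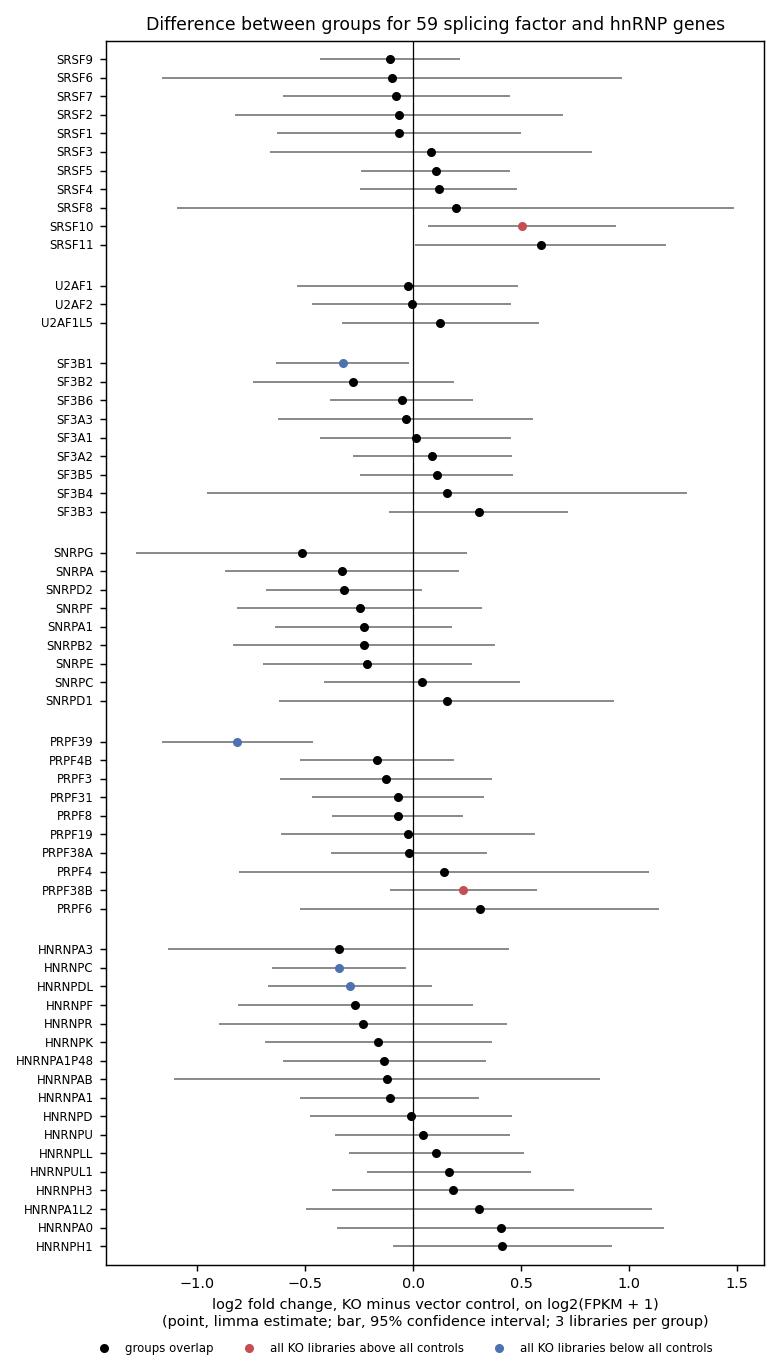
Log2 fold change (KO minus vector control, on log2(FPKM + 1)) of 59 of the 60 genes by family; points are limma estimates, bars their 95% confidence intervals, and colour marks genes whose groups did not overlap. PRPF39 lies lowest at -0.82, SRSF11 highest at 0.59, and most bars cross 0.

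Among the factors of the intron start, PRPF39 had the lowest value of all 60 genes. PRPF39 encodes a U1-associated protein, the counterpart of a yeast U1 snRNP subunit. It read 7.15, 7.97 and 6.47 FPKM in vector control 1 to 3, and 3.38, 3.77 and 3.80 FPKM in KO 1 to 3. Each KO library was lower than each vector control, and the values within a group lay close together. The group means were 7.20 ± 0.751 and 3.65 ± 0.234 FPKM (SD, n = 3 per group). The log2 fold change was -0.82 (SE 0.15, 95% interval -1.16 to -0.47). With a limma adjusted p of 0.0520 it missed the threshold. It passed after median scaling (adjusted p = 0.0437) and after quantiles were equalised (adjusted p = 0.0474), where 1 member was called in each against 1.47% and 1.35% of all tested genes. It also passed without vector control 1 (adjusted p = 0.0234) and in robust limma with array weights (adjusted p = 0.00281), but not when any of the other 5 libraries was left out alone.

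SNRPA and SNRPC, which encode U1 snRNP proteins, had higher levels and no such separation. SNRPA, whose protein binds a stem-loop of U1 RNA, read 21.53, 27.88 and 32.37 FPKM in vector control 1 to 3 and 27.10, 21.39 and 16.46 FPKM in KO 1 to 3. The groups overlapped, with the lowest value in KO 3 and the highest in vector control 3 (log2 fold change -0.33, adjusted p = 0.502). SNRPC, whose protein helps U1 pair with the intron start, had group means of 33.6 ± 7.60 and 34.1 ± 3.43 FPKM (SD, n = 3 per group). Its groups overlapped too.

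U2AF genes overlapped between the groups. U2AF2, the large subunit that binds the polypyrimidine tract, read 19.95, 13.65 and 14.78 FPKM in vector control 1 to 3 and 13.42, 16.04 and 18.41 FPKM in KO 1 to 3. KO 1 was the lowest and vector control 1 the highest of the 6, and the log2 fold change was -0.01 (95% interval -0.47 to 0.45). U2AF1, the small subunit that reads the AG of the intron end, had a log2 fold change of -0.02 (95% interval -0.54 to 0.49) and U2AF1L5 of 0.13 (-0.33 to 0.58). Summed over both copies they gave 9.06, 7.22 and 6.49 FPKM in the vector controls against 5.95, 9.0 and 8.90 FPKM in the KO libraries. The sums overlapped, with means of 7.59 ± 1.32 and 7.95 ± 1.73 FPKM (SD, n = 3 per group).

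Among the U2 snRNP proteins, SF3B1 lay lower in every KO library than in every control, without passing the test. SF3B1 encodes the largest SF3B subunit, which clamps the branch point helix. It read 45.57, 50.46 and 47.75 FPKM in vector control 1 to 3 and 39.63, 36.82 and 37.56 FPKM in KO 1 to 3. The groups did not overlap, and the spread within each was small (47.9 ± 2.45 and 38.0 ± 1.46 FPKM, SD, n = 3 per group). The log2 fold change of -0.33 (SE 0.13, 95% interval -0.63 to -0.02; limma adjusted p = 0.262) did not pass. SF3B3, a scaffold subunit bound to SF3B1, read 37.78, 32.20 and 33.53 FPKM in vector control 1 to 3 and 34.42, 47.35 and 47.87 FPKM in KO 1 to 3. KO 2 and KO 3 were above all controls, and KO 1 lay among them (log2 fold change 0.30, SE 0.18, adjusted p = 0.413). Whether SF3B1 and SF3B3 differed in their change was not tested.

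The remaining SF3 genes overlapped between the groups. SF3B6, which encodes the small p14 subunit near the branch point adenosine, was the most abundant of all 60 genes, with 124 ± 5.54 FPKM in the vector controls and 119 ± 11.1 FPKM in KO (SD, n = 3 per group). Its log2 fold change was -0.05 (95% interval -0.38 to 0.28). SF3B5 followed at 49.9 ± 5.86 and 53.7 ± 4.0 FPKM. SF3B2 read 12.40, 16.70 and 16.40 FPKM in the vector controls and 15.25, 11.56 and 10.38 FPKM in KO, so here vector control 1 and KO 1 lay with the other group (log2 fold change -0.28, adjusted p = 0.511). SF3B4 read 21.10, 9.73 and 6.24 FPKM against 6.82, 15.47 and 17.46 FPKM, the widest range of the 9 SF3 genes as a ratio within each group (3.38-fold in the controls and 2.56-fold in KO). The 3 SF3A genes, which bridge SF3B to the rest of the U2 snRNP, had log2 fold changes between -0.03 (SF3A3) and 0.09 (SF3A2). The U2-specific proteins SNRPA1 and SNRPB2 had log2 fold changes of -0.23 each, with adjusted p of 0.543 and 0.694. SNRPB2 read 19.97 FPKM in vector control 1, against 9.64 to 11.40 FPKM in the other 5 libraries, and without that library its log2 fold change was 0.07 and that of SNRPA1 -0.11.

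Sm proteins form the ring around the RNA of most spliceosomal snRNPs. Of 5 Sm genes in rows of their own, 4 had a log2 fold change below 0, and 0 were called. Over all tested genes 3921 of 9624 lay below 0. SNRPD2 had the second highest level of the 60 genes in the vector controls. It read 75.35, 89.41 and 94.09 FPKM in vector control 1 to 3 and 75.71, 63.42 and 67.20 FPKM in KO 1 to 3. KO 1 was just above vector control 1, and the other 2 KO libraries were below all controls. The log2 fold change was -0.32 (SE 0.15, 95% interval -0.68 to 0.04; adjusted p = 0.331). SNRPG read 26.52, 14.48 and 16.59 FPKM against 8.0, 14.24 and 17.67 FPKM, with a log2 fold change of -0.52 (SE 0.33, limma adjusted p = 0.453). Its lowest and highest values were KO 1 and vector control 1, and without both of these libraries its log2 fold change was 0.03. SNRPD1 was the Sm gene above 0, at 14.3 ± 6.64 and 15.5 ± 4.20 FPKM (SD, n = 3 per group; log2 fold change 0.16). The median of all 9 SNRP genes was -0.23, and it was -0.32 with median scaling, -0.21 with quantile normalization and 0.01 with robust limma. The joined row SNRPB;ZNF343, which holds the Sm gene SNRPB, read 21.46, 14.69 and 15.18 FPKM in the vector controls and 12.57, 21.43 and 21.48 FPKM in KO.

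In the tri-snRNP and its activation, the core gene varied least and its partners more. PRPF8, the large U5 protein at the heart of the catalytic core, read 70.94, 65.22 and 68.40 FPKM in vector control 1 to 3 and 66.99, 64.50 and 63.03 FPKM in KO 1 to 3. The ranges overlapped and were narrow, and the log2 fold change was -0.07 (SE 0.13, 95% interval -0.37 to 0.23). PRPF6, a U5 protein that bridges to U4/U6, read 23.13, 9.54 and 9.10 FPKM against 12.44, 18.18 and 17.96 FPKM. Vector control 1 stood above all other libraries, and all 3 KO libraries were above the other 2 controls (log2 fold change 0.31, SE 0.35, limma adjusted p = 0.695). Without vector control 1 the value of PRPF6 was 0.72 (adjusted p = 0.0606), without vector control 2 or 3 it was 0.12 or 0.09, and without both vector control 1 and KO 1 it was 0.89 (adjusted p = 0.00545). In PRPF4, which encodes a U4/U6 protein, vector control 1 was again highest, at 30.28, 10.11 and 12.69 FPKM in the controls, with 12.32, 20.86 and 20.97 FPKM in KO. PRPF38B, the relative of an activation factor of the tri-snRNP, read 3.52, 3.57 and 2.95 FPKM in the vector controls and 4.30, 3.95 and 4.05 FPKM in KO. Here all KO libraries were above all controls, by a log2 fold change of 0.23 (SE 0.14, 95% interval -0.11 to 0.57; adjusted p = 0.445). PRPF3, PRPF31, PRPF19, PRPF38A and the kinase gene PRPF4B lay between -0.17 and -0.02. The joined row PRPF18;AL157392 read 1.39, 0.92 and 1.09 FPKM in the controls and 1.07, 1.33 and 1.13 FPKM in KO.

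With all 6 libraries, SR protein genes held the highest log2 fold change of the 60 genes, and also the widest spread between vector controls. SRSF11, an SR-related protein gene, read 6.24, 4.26 and 4.74 FPKM in vector control 1 to 3 and 11.20, 8.01 and 5.79 FPKM in KO 1 to 3. KO 3 lay below vector control 1, so the groups overlapped (log2 fold change 0.59, SE 0.25, 95% interval 0.01 to 1.17; limma adjusted p = 0.278). Without KO 1, its highest library, the value of SRSF11 was 0.38, and HNRNPA0 (0.70), HNRNPH1 (0.56) and SF3B4 (0.54) were then among those above it. SRSF10, whose protein represses splicing when dephosphorylated, as in heat shock and mitosis, read 4.55, 3.59 and 2.69 FPKM against 5.47, 5.46 and 5.41 FPKM. The KO libraries were all above the controls and nearly equal to each other. The log2 fold change was 0.50 (SE 0.18, 95% interval 0.07 to 0.94; limma adjusted p = 0.233), and without vector control 1 it was 0.65 (adjusted p = 0.0393).

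The best known SR genes followed the single libraries more than the groups. SRSF2 read 38.27, 21.80 and 18.19 FPKM in vector control 1 to 3 and 16.43, 28.50 and 28.14 FPKM in KO 1 to 3. SRSF3, the smallest of the classical SR proteins, read 36.64, 20.26 and 18.57 FPKM against 17.69, 29.28 and 31.82 FPKM. In both genes vector control 1 was the highest and KO 1 the lowest library, and the log2 fold changes were -0.07 and 0.08 (after median scaling -0.16 and -0.01, after quantile normalization 0.01 and 0.16). SRSF1, the founding SR protein and a known oncoprotein, read 12.54, 12.11 and 11.13 FPKM against 8.63, 10.00 and 16.77 FPKM. Its controls lay close together inside the range of the KO libraries (log2 fold change -0.06, 95% interval -0.63 to 0.50). SRSF9 was the most abundant SR gene, at 30.3 ± 1.22 and 28.1 ± 2.36 FPKM (SD, n = 3 per group; log2 fold change -0.11, 95% interval -0.43 to 0.22).

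SRSF8 and SRSF6 varied most among the controls. SRSF8 read 12.70, 2.20 and 2.03 FPKM in vector control 1 to 3 and 4.6, 4.62 and 5.35 FPKM in KO 1 to 3. All KO libraries lay between vector control 1 and the other 2 controls. Its log2 fold change was 0.20 (SE 0.55, adjusted p = 0.884), and without vector control 1 it was 0.91 (adjusted p = 0.0171). SRSF6 read 34.80, 8.14 and 18.15 FPKM against 14.60, 14.90 and 19.57 FPKM, so that the controls spanned the KO range on both sides.

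Among hnRNP genes, HNRNPC and HNRNPDL were lower in every KO library. HNRNPC, whose protein binds uridine tracts of pre-mRNA as a tetramer, read 33.31, 35.24 and 37.68 FPKM in vector control 1 to 3 and 26.93, 28.41 and 27.75 FPKM in KO 1 to 3. The log2 fold change was -0.34 (SE 0.13, 95% interval -0.65 to -0.03; limma adjusted p = 0.250). HNRNPDL, a relative of HNRNPD, read 18.94, 16.38 and 16.46 FPKM against 13.46, 16.28 and 12.20 FPKM. KO 2 was only just below the lowest control, and the log2 fold change was -0.29 (SE 0.16, adjusted p = 0.390). HNRNPD itself, the AU-rich element binding protein AUF1, had 10.4 ± 2.52 and 10.2 ± 1.38 FPKM (SD, n = 3 per group).

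The F/H gene HNRNPH1 had the highest log2 fold change of the hnRNP genes. The A/B gene HNRNPA3 had the lowest at -0.344, with HNRNPC close to it at -0.342. After quantile normalization HNRNPDL was below HNRNPA3 (-0.243 against -0.241). HNRNPH1, which binds runs of G, read 33.09, 21.81 and 27.91 FPKM in vector control 1 to 3 and 29.55, 44.27 and 37.38 FPKM in KO 1 to 3. KO 2 and KO 3 were above all controls and KO 1 among them (log2 fold change 0.41, SE 0.22, adjusted p = 0.367). Its relative HNRNPF went the other way in its mean, at 49.8 ± 14.3 and 40.0 ± 0.478 FPKM (SD, n = 3 per group), with vector control 2 alone below the KO libraries. HNRNPA3 read 35.54, 38.12 and 36.73 FPKM in the controls and 16.35, 45.68 and 31.57 FPKM in KO. KO 2, the highest library, was 2.79 times KO 1, the lowest, and without KO 1 the log2 fold change of -0.34 became 0.05. HNRNPAB read 76.35, 28.42 and 28.12 FPKM against 24.71, 42.77 and 44.84 FPKM, with vector control 1 far above the rest.

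HNRNPA1, one of the most abundant nuclear RNA-binding proteins, read 75.59, 72.85 and 73.80 FPKM in vector control 1 to 3 and 54.55, 80.07 and 74.00 FPKM in KO 1 to 3. KO 1 was the lowest library and the others lay close together (log2 fold change -0.11, 95% interval -0.52 to 0.31). HNRNPA1 and its copies HNRNPA1L2 and HNRNPA1P48 summed to 98.46, 90.91 and 96.62 FPKM against 70.03, 105.67 and 96.95 FPKM. The sums overlapped in the same way as HNRNPA1 alone. HNRNPK, a poly(C) binding protein, read 56.55, 34.39 and 37.24 FPKM against 31.58, 39.02 and 41.75 FPKM (log2 fold change -0.16, 95% interval -0.68 to 0.36). Again vector control 1 was the highest and KO 1 the lowest library. HNRNPU, HNRNPUL1, HNRNPLL, HNRNPH3, HNRNPA0 and HNRNPR lay between -0.23 and 0.40, and 0 of them were called. The joined row HNRNPM;MARCH2 read 10.98, 6.65 and 6.36 FPKM in the controls and 6.51, 11.73 and 11.86 FPKM in KO, so vector control 1 and KO 1 lay with the other group.

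**Figure D2:**
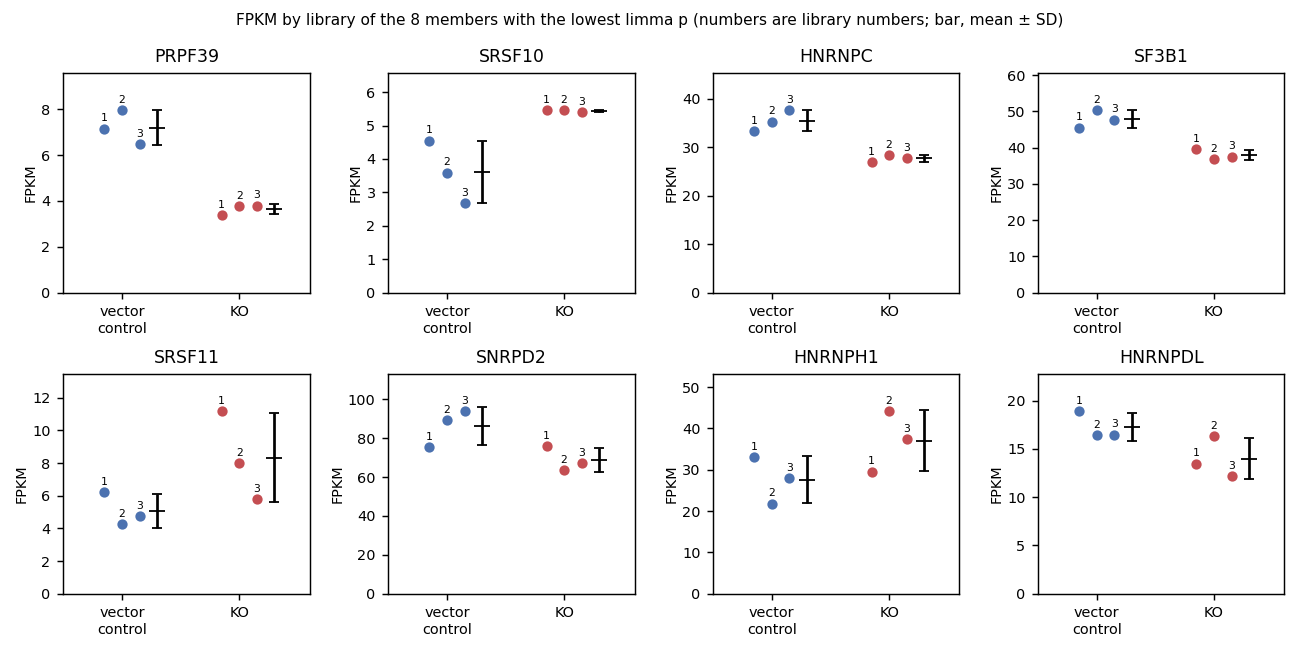
FPKM (vertical axes, each from 0) in each library of the 8 members with the lowest limma p; numbers mark the libraries of each group and black bars the mean ± SD of 3 libraries. The groups do not overlap in PRPF39, SRSF10, HNRNPC, SF3B1 and HNRNPDL, while they do in SRSF11, SNRPD2 and HNRNPH1.

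Another pattern in these genes was a difference between libraries of the same group. Vector control 1 stood apart over all tested genes too. Its log2(FPKM + 1) correlated at 0.925 and 0.932 with KO 2 and KO 3, but at 0.904 and 0.906 with vector control 2 and 3. Vector control 1 was the highest of the 6 libraries in 32 of the 60 genes, or 53.3%, against 23.6% of all tested genes. KO 1 was the lowest in 25 of the 60 genes, or 41.7%, against 15.7% of all tested genes. Vector control 1 was above both other controls in 46 genes, or 76.7%, against 49.9% of all tested genes. KO 1 was below both other KO libraries in 45, or 75%, against 41.8%. The distance of vector control 1 from the mean of vector control 2 and 3 had a median size of 0.39 on the log2(FPKM + 1) scale, and that of KO 1 from KO 2 and 3 one of 0.38. The median size of the log2 fold change between the groups was 0.16. One or both of these distances exceeded the group difference in 53 of the 60 genes. The other 7 were PRPF39, SRSF10, HNRNPC, SF3B1, SNRPD2, HNRNPDL and PRPF38B. The distance of 1 library from a mean of 2 varies more than a difference between means of 3. For each gene 2 distances were tried, with vector control 1 and KO 1 picked after the values were seen. A high count can thus arise without a group effect, and its share over all tested genes was not computed.

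Vector control 1 had the highest mean in all 6 families, and KO 1 the lowest in all but SRSF, where vector control 2 was lowest. Relative to the mean of the vector controls, the mean log2(FPKM + 1) of the 60 genes came to 0.27, -0.16 and -0.11 for vector control 1 to 3, and to -0.24, 0.08 and 0.07 for KO 1 to 3. The mean over all tested genes moved far less, from -0.02 to 0.06, but in such a mean rises and falls of single genes cancel. Gene by gene the spread was alike in the vector controls, while in KO it was wider for the 60 genes. The median SD on the log2 scale was 0.23 in the vector controls and 0.25 in KO for the 60 genes. Over all tested genes it was 0.24 and 0.19. SRSF genes had the highest mean in vector control 1 (0.41) and SNRP genes the lowest in KO 1 (-0.40). SF3A and SF3B genes ranged least, from -0.18 in KO 1 to 0.12 in vector control 1.

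**Figure D3:**
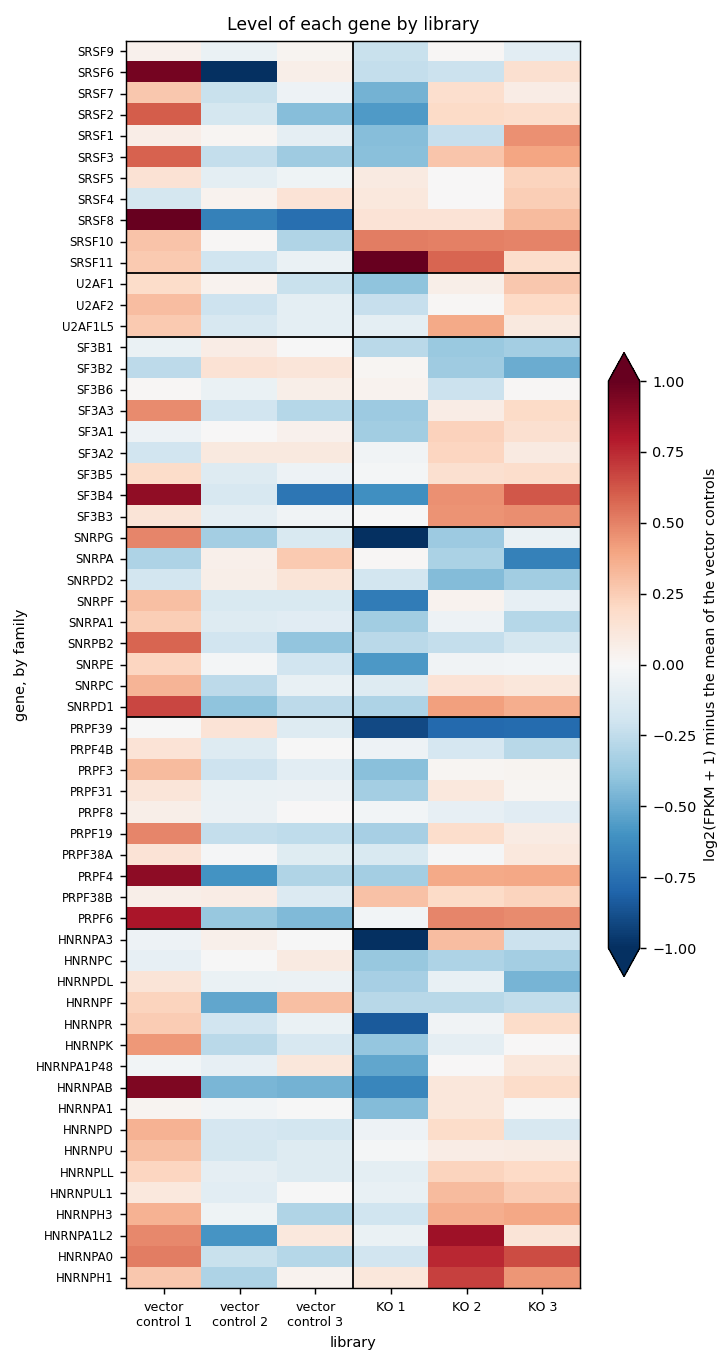
Colour shows log2(FPKM + 1) minus the mean of the vector controls (scale from -1 to 1, values beyond it in the end colours) for 59 of the 60 genes (rows, by family) in each library (columns). Vector control 1 is mostly red and KO 1 mostly blue, while PRPF39 is blue in all 3 KO libraries.

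These libraries also differed in the RNA of clustered histone genes, most of which are transcribed in S phase. Such rows held 6.10% of all FPKM for vector control 1, with 5.05% and 5.09% for KO 2 and KO 3. Vector control 2, vector control 3 and KO 1 had shares of 2.75%, 3.17% and 2.94%. The 60 splicing genes made up 1.24% of all FPKM for vector control 1 and 1.10% and 1.11% for KO 2 and KO 3. The shares for vector control 2, vector control 3 and KO 1 were 0.982%, 1.01% and 0.965%. The same 3 libraries were thus the highest in both shares. Both shares are parts of the same sum, and the part of histone RNA or of the cell cycle in the splicing genes' values was not tested.

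**Figure D4:**
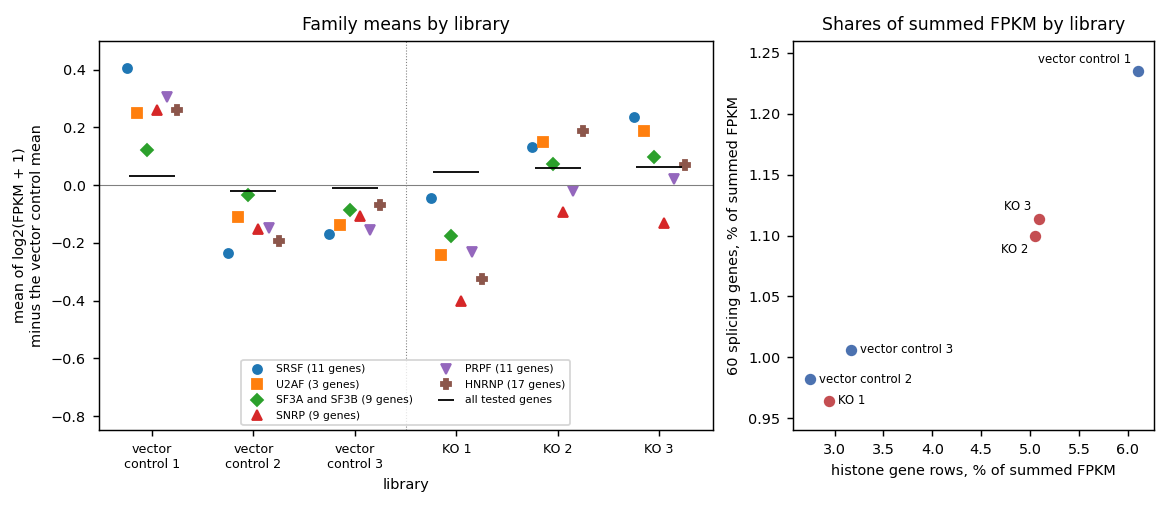
Left, mean of log2(FPKM + 1) minus the vector control mean for each family (symbols) and for all tested genes (black bars) in each library; right, the 60 genes' share of summed FPKM against that of histone gene rows, 1 point per library. Vector control 1, KO 2 and KO 3 have the highest shares on both axes of the right panel, at 5.05% or more of histone rows.

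With single libraries left out in turn, calls among the 60 genes came only without vector control 1. When any other single library was left out, KO 1 included, 0 were called. Without vector control 1, limma called 3 of the 60 genes, PRPF39 lower and SRSF10 and SRSF8 higher, against 13.8% of all tested genes. With robust limma and array weights it called 19, of which 13 were higher and 6 lower, against 41.8%. Without both vector control 1 and KO 1, an alternative added after the values were seen, it called 24, of which 18 were higher and 6 lower, against 37.1%. The last fit rests on 2 libraries per group that lie close together. Their median SD in the 60 genes was 0.07 for vector control 2 and 3 and 0.08 for KO 2 and 3 on the log2 scale, against 0.23 and 0.25 with all 3 libraries of a group. The direction of the median followed the same libraries, at -0.04 with all libraries, 0.06 without vector control 1, 0.11 without KO 1 and 0.185 without both.

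The 4 most abundant genes were the same in both groups. SF3B6 ranked first in each, followed by SNRPD2, HNRNPA1 and PRPF8 in the controls and by HNRNPA1, SNRPD2 and PRPF8 in KO. SF3B6 did not overlap SNRPD2 in either group (117.58 to 128.53 against 75.35 to 94.09 FPKM in the controls). In KO, SNRPD2, HNRNPA1 and PRPF8 overlapped each other. PRPF8 (65.22 to 70.94 FPKM) lay below HNRNPA1 (72.85 to 75.59 FPKM) in the controls. U2AF1L5 was the lowest of the 60 in both groups, and PRPF39 went from rank 52 to rank 59.

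Other genes of the splicing pathway gave the same count of calls. Of 165 genes in 6 lists, 134 were tested in rows of their own, 23 were present only within joined rows and 8 lay below the level. Of the 134, 0 were called higher and 0 lower over all tested genes, 13 had an unadjusted limma p below 0.05 (2 higher, 11 lower) against 17.5% of all tested genes, and their median log2 fold change was -0.04. In 23 of them, or 17.2%, the groups did not overlap, 6 higher and 17 lower in KO. This compares with 23.8% of all tested genes, 15.4% higher and 8.35% lower.

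The SR-related proteins and SR protein kinases had the lowest single value. SRRM2, a scaffold of nuclear speckles, read 28.55, 14.74 and 23.38 FPKM in vector control 1 to 3 and 11.36, 7.04 and 9.57 FPKM in KO 1 to 3. The groups did not overlap, and the log2 fold change of -1.14 (SE 0.27, 95% interval -1.79 to -0.50; limma adjusted p = 0.116) did not pass. The kinase gene DYRK1A was the highest of this list at 0.29. Another kinase gene, CLK1, lay at -1.02 (limma adjusted p = 0.175, and 0.0158 without vector control 1), and its groups did not overlap. The remaining kinase genes lay between -0.32 (SRPK2) and 0.22 (CLK3). The median of the 20 tested members was -0.11.

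Regulators that vary between tissues had values on both sides. ELAVL1, which encodes the AU-rich element binding protein HuR, read 11.43, 16.52 and 14.22 FPKM against 19.68, 24.40 and 24.45 FPKM (log2 fold change 0.67, SE 0.18, limma adjusted p = 0.148). MBNL2, a muscleblind-like splicing regulator, read 26.27, 22.44 and 16.76 FPKM against 13.69, 12.17 and 12.13 FPKM (log2 fold change -0.72, SE 0.19, limma adjusted p = 0.143). In neither gene did the groups overlap. The median of the 34 tested members was -0.08, and the epithelial splicing regulators ESRP1 and ESRP2 were at 0.25 FPKM or below in every library.

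The other 4 lists had medians near 0 or slightly below. Among 30 snRNP proteins outside the name rule (median -0.00340), the minor spliceosome gene SNRNP48 was lowest at -0.71 (limma adjusted p = 0.164) and the U5 gene TXNL4A highest at 0.28. Among 25 Prp19 complex and catalytic step genes (median -0.02), SYF2 was lowest at -0.44 and TFIP11 highest at 0.46. Among 13 genes of the exon junction complex and nonsense-mediated decay (median -0.01), UPF3B was lowest at -0.31 and its paralogue UPF3A highest at 0.55 (limma adjusted p = 0.227, and 0.0354 without vector control 1). UPF3B read 1.59 FPKM in KO 1 and 5.36 to 7.63 FPKM in the other 5 libraries, and without KO 1 its log2 fold change was 0.25. Among 12 snRNP assembly genes (median -0.10), CLNS1A was lowest at -0.45. The cap hypermethylase gene TGS1 was highest at 0.66, with 14.14, 3.80 and 2.87 FPKM in the controls and 7.11, 10.59 and 10.87 FPKM in KO. Vector control 1 was the highest library of TGS1, and without it the log2 fold change was 1.27 (limma adjusted p = 0.0234). Without that library 7 of the 134 genes were called, against 13.8% of all tested genes. Of the 7, 4 were higher (UPF3A, TGS1, PLRG1 and RBMX) and 3 lower (CLK1, NONO and RBM47).

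The labelled epithelial cell type was checked against 8 marker genes in rows of their own. KRT18 (28.78 to 79.42 FPKM) and KRT19 (12.69 to 39.34 FPKM) were present in every library. CLDN4 read 0.54 FPKM in KO 1 and 11.29 to 42.72 FPKM in the other libraries. EPCAM, CDH1 and KRT7 were at 0.14 FPKM or below in every library, and ESRP1 and ESRP2 at 0.25 FPKM or below. VIM, an intermediate filament gene of mesenchymal cells, stood between 459.52 and 674.80 FPKM. Of 9 leukocyte markers PTPRC and 4 others were listed at 0 throughout, and the summed level of the list was 0.18 to 0.91 FPKM in the controls and 1.33 to 1.83 FPKM in KO, LYZ being the marker above 1 FPKM. The summed level of the 8 epithelial markers was 108.43 to 160.09 FPKM in the controls and 66.01 to 84.01 FPKM in KO, and the part of these markers in the splicing genes' values was not tested. The 5 endothelial markers summed to at most 0.34 FPKM, the 4 acinar markers to at most 0.15 FPKM and the 5 neuroendocrine markers to at most 0.88 FPKM. Mesenchymal markers summed to 550.08 to 632.53 FPKM in the controls and 465.06 to 679.74 FPKM in KO, and fibroblast markers to 68.91 to 98.89 and 68.15 to 96.84 FPKM.

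Short motifs in the members' promoters are given as a description. Of the 60 genes, 50 had an entry in a RefSeq promoter table (GRCh38.p14), and the 250 bases before the start were searched on both strands. CCGGAAG, a core of ETS factor sites, was found in 19 of the 50 (38%), against 20.7% of 7074 tested genes with an entry and 10.2% of all 27305 promoters. CCAAT was found in 48% of the members against 42.3% and 37%, GGGCGG in 62% against 77.7% and 46.2%, and TATAAA in 14% against 7.11% and 13.1%. No matches overlap in the windows printed here, and a match is not a binding site.

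The promoters shown belong to the 5 members with an entry whose groups did not overlap. Each is 100 bases that end just before the most upstream start that GENCODE 29 or RefSeq annotates in the window, read on the gene's strand, with matches to any of the 4 motifs in capitals.
SRSF10 (chr1:23980357-23980456, minus strand): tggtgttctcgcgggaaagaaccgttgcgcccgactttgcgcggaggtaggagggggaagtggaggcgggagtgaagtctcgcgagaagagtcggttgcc
PRPF38B (chr1:108692210-108692309, plus strand): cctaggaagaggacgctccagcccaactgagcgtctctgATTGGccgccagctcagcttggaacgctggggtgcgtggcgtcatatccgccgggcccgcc
SF3B1 (chr2:197435094-197435193, minus strand): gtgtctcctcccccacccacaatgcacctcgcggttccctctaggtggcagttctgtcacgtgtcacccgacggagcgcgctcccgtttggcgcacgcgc
HNRNPC (chr14:21269495-21269594, minus strand): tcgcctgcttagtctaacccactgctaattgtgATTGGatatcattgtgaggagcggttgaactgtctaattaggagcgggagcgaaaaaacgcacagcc
HNRNPDL (chr4:82430463-82430562, minus strand): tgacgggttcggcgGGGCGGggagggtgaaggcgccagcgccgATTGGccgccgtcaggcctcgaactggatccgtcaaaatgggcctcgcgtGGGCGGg
ATTGG, the reverse complement of CCAAT, occurs in PRPF38B, which was higher in KO, and in HNRNPC and HNRNPDL, which were lower. The windows of SRSF10 and SF3B1 hold none of these letters.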

How the data were processed

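Total RNA of 6 libraries was sequenced. The authors deposited 1 table of FPKM, named so per the file headers, with 1 column per library and 2 decimals. The tools named per the submitters' processing notes were cutadapt, FastQC and HISAT2, and the build hg19. Which tool and annotation gave FPKM, and whether strand was used, is not given in the sources used here, so a gene and an antisense partner cannot be told apart. Low values of short genes showed no whole-read steps (highest concentration 0.471, where exact multiples give 1), so depth is unknown. How far depth limits the precision was not tested. Summed FPKM ran from 123107 to 134389 per library. The divisors of the median scaling were 1.02, 0.951 and 0.962 for vector control 1 to 3. For KO 1 to 3 they were 1.04, 1.05 and 1.05.

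All 9624 rows with at least 1 FPKM in at least 3 libraries were fitted with limma 3.58.1 (R 4.3.3; lmFit and eBayes, trend set) using log2(FPKM + 1). The contrast was KO minus vector control, two-sided, with Benjamini-Hochberg adjustment over all rows, called below 0.05. The script was tested on simulated data. Log2 fold changes on this scale understate changes of low genes. The members, the lists and the division into roles were chosen with earlier results of these data known. Genes were named by rule: called members, each family's highest and lowest change and highest level, the 8 lowest p, and a fixed set of well-known factors (SNRPB had only a joined row); for other lists the highest and lowest change. Other members, SRSF6, SRSF8 and HNRNPAB among them, and CLK1 of the other lists were described after their values were seen. Sequences came from GENCODE 29 and RefSeq, aligned with Biopython 1.88. One member is counted but not reported here. Alternatives were other pseudocounts, filters, scalings, fits, thresholds, a replicate block and leaving out libraries.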

Additional observations from a re-analysis of the deposited data

How the results depend on the processing

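With an adjusted p below 0.1, 1 of the 60 genes was called, and likewise 1 after median scaling and 1 after quantile normalization (PRPF39 each time). The number was 19 under robust limma with array weights, 24 without both vector control 1 and KO 1, and 0 to 3 when each library was left out in turn. For all tested genes the count of 130 became 31 at 0.01, 274 at 0.1, 241 without a filter, 59 with a filter of 5 FPKM, 4020 with robust limma and array weights, 3575 without both libraries, and 25 to 1329 with 1 library left out. Of the 134 other splicing genes, 45 were called with robust limma and 40 without both libraries, against 41.8% and 37.1% of all tested genes. With 1 library left out, 0 to 7 were called, the 7 without vector control 1, against 13.8% of all tested genes. The count of members whose groups did not overlap became 12 after median scaling. The replicate numbers did not pair the libraries: deviations of same-numbered libraries correlated at -0.37, -0.15 and -0.26. With the replicate block 7 of all tested genes and 0 members were called.

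Without both libraries the medians were 0.185 (all members), 0.20 (HNRNP), 0.17 (SF3A and SF3B), 0.0776 (SNRP), 0.45 (SRSF) and 0.26 (U2AF). With robust limma they were 0.00916 (SNRP), 0.38 (SRSF) and 0.24 (U2AF). With 1 library left out the HNRNP median ran from -0.19 to 0.17 and that of SF3A and SF3B from -0.0774 to 0.15. Over the 60 genes the sign of the log2 fold change turned in 5 after median scaling, 8 after quantile normalization, 20 with robust limma, 15 without vector control 1, 16 without KO 1 and 22 without both. Among the members named by rule, 0 of them called, these were after quantile normalization HNRNPA1 (0.0206), PRPF8 (0.0275), SF3B6 (0.0819), SRSF9 (0.0287), SRSF2 (0.0074) and U2AF2 (0.0358), and after median scaling SRSF3 (-0.0146). With robust limma they were HNRNPK (0.13), HNRNPA1 (0.0184), SRSF2 (0.38), SRSF1 (0.14), U2AF1 (0.19) and U2AF2 (0.24). Without both libraries they were HNRNPA3 (0.0214), HNRNPK (0.17), HNRNPA1 (0.0692), SNRPG (0.0317), SRSF2 (0.49), SRSF1 (0.15), U2AF1 (0.25) and U2AF2 (0.26). With 1 library left out the values ran from -0.67 to 0.0455 for HNRNPA3, -0.30 to 0.0543 for HNRNPK, -0.22 to 0.0548 for HNRNPA1, -0.10 to 0.0255 for SF3B6, -0.0461 to 0.49 for SNRPD1, -0.28 to 0.24 for SRSF2, -0.33 to 0.11 for SRSF1, -0.10 to 0.38 for SRSF3, -0.17 to 0.16 for U2AF1 and -0.11 to 0.15 for U2AF2. The cause was not tested.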
